A study of Mus musculus with 4 samples.

Results

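The comparison described here sets cells carrying a hairpin against Mical2 beside both of the study's controls. It is held by 3 of the 4 arrays of the series, with 1 array per group. All cells were SVEC4-10, mouse lymph node endothelium transformed with SV40. The untreated array held cells that received no vector. The vector array (vector-only cells) held cells transduced with the insert-free pLENTI6/Block-iT lentiviral vector, and the array labelled Mical2 held cells given that backbone with an anti-Mical2 short hairpin RNA in it. The remaining array, labelled Mical3, held the anti-Mical3 hairpin and is given only side by side. Transduced cells were selected with blasticidin, which the untreated cells were not said to receive. RNA of 3 biological replicates was pooled before each hybridisation, which hides their spread, and no p-value or error is given. A single pool of transduced cells per construct also means that the hairpin, the integration sites and the selected cells cannot be told apart.

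All values are log2 levels of messenger RNA after RMA, or differences between such levels, where a difference of 1 is a 2-fold change. A gene was called higher or lower when the array labelled Mical2 differed by at least 1, in the same direction, from vector-only cells and from untreated cells. The higher of the compared levels also had to reach 5.41, the table's median, called the floor below. Of 18193 genes measured, 12072 reached the floor, and 329 of these (2.73%) were called. The 118 called higher were 0.977% of the genes at the floor, and the 211 called lower were 1.75%. These shares are the background for the counts of list members below, which are likewise over members at the floor, with the number measured in brackets. A gene was at the floor when any of the 3 compared arrays reached it. The calls come from the same contrast as those shares and from single arrays, so counts and levels are descriptions. Where a level is followed by a pair of values after the word with, these are the vector array and the untreated array, in that order.

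Mical2 encodes a flavin monooxygenase that oxidises actin at methionine residues and so takes filaments apart. By drawing actin out of the free nuclear pool it is known to let cofactors of the MRTF family switch on genes bound by SRF. Msrb reductases reverse the oxidation. In endothelial cells, the same filaments carry adhesion, migration and the sprouting of new vessels. The study asked which transcripts change when this enzyme is depleted there.

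The construct is shown first because every comparison rests on it. Its sense stem has 23 bases, of which 56.5% are G or C, and the strand after the loop is the complement meant to pair with the Mical2 transcript. Bases 2 to 8 of that strand, in capitals, would form the seed. They are also the seed of 1 of 1679 mature mouse miRNAs in RefSeq (GRCm38.p6), miR-6943-3p, printed for comparison. A shared seed is a match of letters and says nothing of which transcripts were bound. Target sites in transcripts were not analysed here.
Mical2 hairpin, sense stem: aacatggcaggagcaggaagcac
Mical2 hairpin, antisense stem: gTGCTTCCtgctcctgccatgtt
mmu-miR-6943-3p: cUGCUUCCauaccccuacccag

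The targeted transcript did not follow its label. Both Mical2 probe sets read 5.53 on the array labelled Mical2, against 5.14 and 4.64 in vector-only cells and 5.60 and 5.33 in untreated cells. These levels lie at or near the floor, where RMA compresses differences. The array labelled Mical3 had the highest Mical2 levels, 6.08 and 6.0. Mical3 itself read 6.83 on the array labelled Mical2, with 7.29 and 7.39, and 7.24 on the array labelled Mical3, so neither targeted transcript was lowest on its own array. Mical1, the third enzyme of the family, read 8.0 with 8.0 and 7.59, and 6.82 on the array labelled Mical3. Mical2 was thus not lower by 2-fold than on either control, and directions below are differences between labelled arrays. Of the other proteins of this chemistry, Micalcl, a short relative without the enzyme domain, was the 1 called of 9 members at the floor (10 measured), as higher. It read 6.06, with 4.76 in vector-only cells and 4.96 in untreated cells, and 5.06 on the Mical3-labelled array. Only the array labelled Mical2 was above the floor for Micalcl, so the size of this difference is not resolved. Msra, a methionine sulfoxide reductase, read 7.87, with 6.65 and 7.02, short of the rule against the untreated array. Msrb3 stood at 10.47 with 9.85 and 10.17, while Msrb1 (9.19, with 9.15 and 9.34) lay between both controls.

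The labelled cell type was checked against markers. Of 12 markers of vascular endothelium, 8 were below the floor on all 4 arrays. Those included Cdh5, the endothelial cadherin, at 4.36 on the array labelled Mical2, 3.95 in vector-only cells and 4.50 in untreated cells, and Pecam1, a junctional adhesion molecule, at 3.85, 3.88 and 3.46. Flt1, a VEGF receptor, was present at 7.72, 7.76 and 7.73, and Egfl7 at 6.97, 7.10 and 7.24. Kdr and Esam were just above the floor. Of 4 measured lymphatic markers, Pdpn (11.67, with 12.50 in vector-only cells and 12.29 in untreated cells) and Flt4 were present, while Prox1 and Lyve1 were below the floor. Fibroblast markers were high and differed between the controls. The log2 of their summed levels was 15.19 on the array labelled Mical2, 12.97 in vector-only cells and 15.55 in untreated cells. Smooth muscle and pericyte markers gave 14.18, 11.87 and 13.94. Of 6 macrophage markers, 4 were at the floor on the array labelled Mical2, and the log2 of the summed level was 9.15, with 8.96 in vector-only cells and 8.45 in untreated cells. Ptprc and Adgre1, which define blood cells and macrophages, were below the floor on every array. Of 5 epithelial markers, 4 were at the floor on the array labelled Mical2, with a summed level of 9.29 there, 8.10 in vector-only cells and 9.15 in untreated cells. In bulk RNA, a change in the share of a cell type and a change per cell cannot be told apart.

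**Figure D1:**
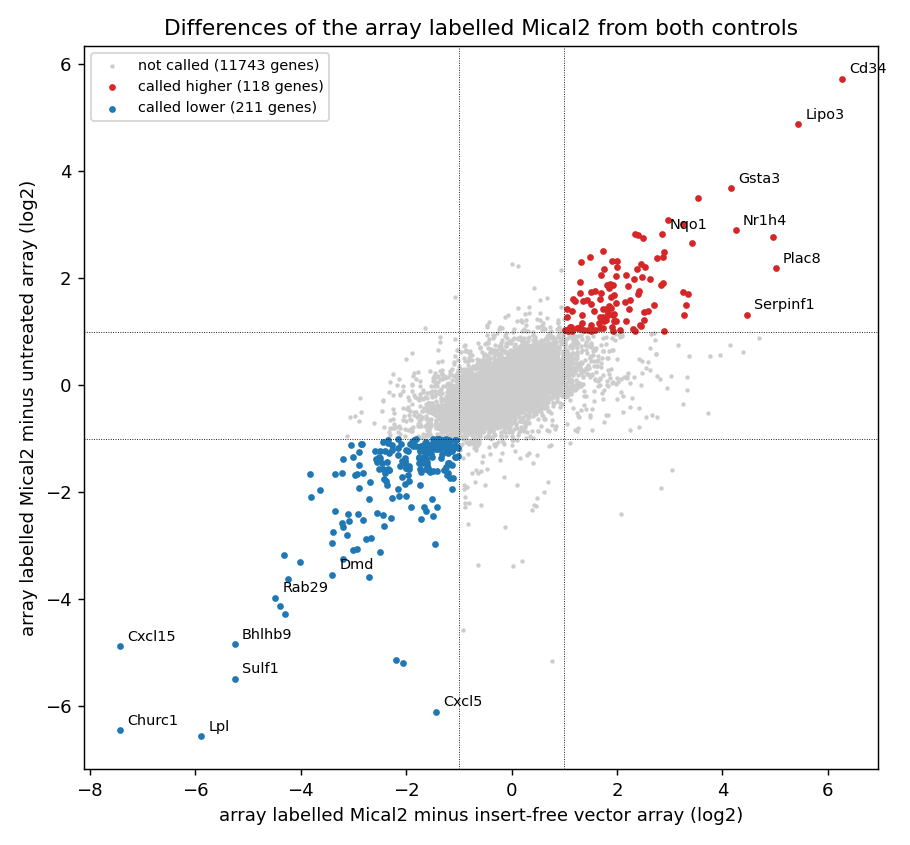
Differences of the array labelled Mical2 from vector-only cells (horizontal axis, log2) and from untreated cells (vertical axis, log2) for the 12072 genes at the floor. Red points are the 118 genes called higher, blue points the 211 called lower, grey points genes not called, and dotted lines mark a difference of 1. The grey cloud is wider along the horizontal axis than along the vertical one.

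The array labelled Mical2 stood closer to the untreated array than to the vector array. Across the genes at the floor, the differences had a standard deviation of 0.49 from untreated cells and 0.69 from vector-only cells. Between the controls themselves, vector array minus untreated array, it was 0.52. The vector array was at least 1 higher for 386 of these genes and at least 1 lower for 308, 5.75% in all. With the vector array alone as control, 458 genes (3.82%) were higher and 828 (6.91%) lower, 10.7% in all. With the untreated array alone it was 172 (1.44%) and 291 (2.44%), 3.89% in all. Against the mean of both controls it was 236 (1.98%) and 396 (3.32%), 5.3% in all. Most called genes lay between 2-fold and 4-fold from the nearer control. The median of the smaller difference was 1.42 for those called higher and 1.35 for those called lower, and 24 and 40 genes were at least 4-fold away from both controls. At the edge of the rule, Eif2s3y, Foxf2 and Klf6 lay just inside at 1.01, with Slc30a1 and Elfn1 just outside at 0.99. Eif2s3y, a gene of the Y chromosome, read 6.04, with 3.14 and 5.03, both below the floor, and 8.75 on the Mical3-labelled array. What sets the arrays apart for this gene was not tested. On the lower side AU040320 and Amn1 lay inside at -1.0, and Ppm1e and the immunoproteasome subunit gene Psmb9 lay outside at -0.99 and -0.98.

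Other probe sets of the same genes give a reading that the choice of genes did not use, although from the same RNA. Among genes called higher, 37 had another probe set at the floor, 57 probe sets in all. Of these, 54 lay above both controls and 22 did so by at least 1, that is 38.6%. Among genes called lower, 92 had 141 such probe sets, with 123 below both controls and 42 past 1, that is 29.8%. Some of these probe sets reached the floor only through the array labelled Mical2, such as 1 of Ebf1 (6.23, with 3.91 and 4.10), and so had to read higher. Likewise, a probe set at the floor only on both controls had to read lower. For genes that were not called, 0.386% of 8817 second probe sets lay at least 1 higher and 0.533% at least 1 lower. Those genes were picked for lacking the difference, so the contrast between these shares is partly set by the selection. The standard deviation between the readings of a gene with 2 probe sets was 0.36 for the difference from vector-only cells and 0.27 for that from untreated cells. It includes differences between the probe sets themselves and leaves out the spread between biological replicates, so it is not the error of a single difference.

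**Figure D2:**
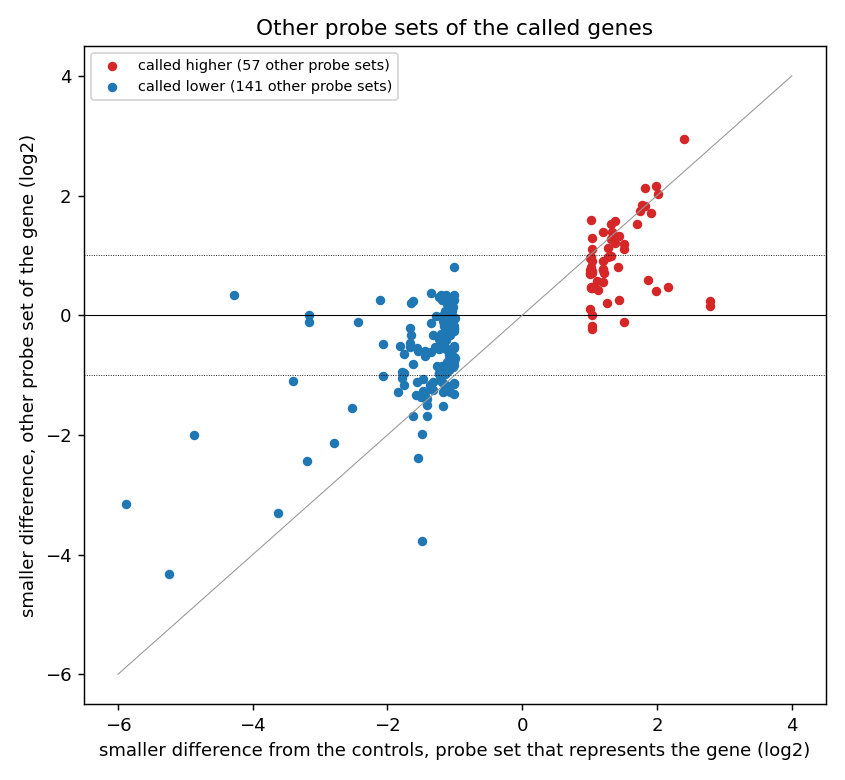
Each point is another probe set of a called gene at or above the floor. The horizontal axis is the smaller difference from the 2 controls for the probe set that represents the gene, the vertical axis the same quantity for the other probe set (both log2), and the diagonal marks equality. Of 57 probe sets of genes called higher 54 lie above 0, and of 141 of genes called lower 123 lie below 0.

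Among surface and secreted proteins of the vessel wall, Cd34 ranked first of the genes called higher. Cd34, a sialomucin of endothelial and progenitor cells, read 10.02 on the array labelled Mical2, 3.76 in vector-only cells, 4.29 in untreated cells and 3.93 on the Mical3-labelled array. Only the array labelled Mical2 was above the floor, so the size of the ratio is not resolved. Podxl, another member of the family, was not called and read 7.66, with 8.33 and 9.24. Selp, P-selectin, which catches leukocytes on activated endothelium, was called higher at 8.30, with 5.98 in vector-only cells, 6.32 in untreated cells and 5.75 on the Mical3-labelled array. A second Selp probe set read 6.40, with 5.16 and 5.99, in the same direction but short of 2-fold over untreated cells. Mmrn1, multimerin, a large glycoprotein of platelets and lymphatic endothelium, read 6.67, with 4.47 and 4.82. The array labelled Mical3 had a like level of it, 6.56. Ece1, which cleaves endothelin to its active form, was called lower at 7.56, with 9.19 and 8.69. Of 21 endothelial genes at the floor (45 measured), Mmrn1 and Ece1 were the ones called, and the medians were 0.34 and 0.16.

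Growth factor receptors and ligands were mostly close to both controls. Of 22 at the floor (32 measured), Kitl, the ligand of the Kit receptor, was called higher at 10.98, with 9.96 in vector-only cells and 9.94 in untreated cells, and Flt4, the receptor of VEGF-C, lower at 7.66, with 8.90 and 9.18. A second Flt4 probe set was lower by only 0.39 and 0.53. Vegfa read 7.98, with 9.04 and 8.34, and Vegfb 8.17, with 9.77 and 8.89. Tspan12, a tetraspanin that promotes Frizzled signalling in growing vessels, was called lower at 3.63, with 6.30 and 6.48. None of 28 Wnt genes at the floor (36 measured), 12 Notch genes (17 measured) or 36 guidance genes (42 measured) was called. Within the guidance list, Sema6d lay just outside the rule with a smaller difference of 0.98, at 8.02 with 5.31 in vector-only cells and 7.04 in untreated cells.

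Signalling outputs that follow growth factor receptors were called in small numbers. Of 25 immediate early and AP-1 genes at the floor (26 measured) 3 were called, all higher. Fos read 10.40 with 8.71 in vector-only cells and 8.67 in untreated cells, and Fosl1, another AP-1 subunit, read 8.97 with 7.54 and 7.38. On the Mical3-labelled array, Fos stood at 10.01 and Fosl1 at 8.23. For Mycn the representing probe set read 9.12, with 4.16 and 6.34, but its other 2 probe sets differed by 0.26 or less from each control. Of 11 Kruppel-like factors, Klf2, which responds to flow in endothelium, read 8.56 with 7.39 and 6.95, and Klf6 read 10.89 with 9.39 and 9.88. All 5 Klf6 probe sets were above both controls. The EGF receptor ligand gene Hbegf, the 1 called of 20 ERK signalling genes at the floor (21 measured), was called at 9.19 with 7.67 and 8.16, and Ereg, a related ligand, read 8.54 with 7.86 and 7.28. Among 29 genes of TGF-beta and BMP signalling at the floor (34 measured), Id2, an inhibitor of basic helix-loop-helix factors, was called higher at 11.10 with 9.16 and 9.77. Bambi, a decoy receptor, was called at 6.73 with 5.62 and 5.63. On the Mical3-labelled array Mycn read 8.80, Klf2 8.11, Klf6 11.05, Hbegf 9.34 and Id2 10.67, each within 1 of the array labelled Mical2. Bambi was lower there, at 5.07.

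Genes of the actin system, the known field of the Mical2 enzyme, were compared next. None of 32 listed SRF and MRTF genes at the floor (37 measured) was called in either direction. Their median difference was 0.54 from vector-only cells and -0.01 from untreated cells, beside -0.05 and -0.03 over all genes at the floor. The absence of calls holds for this list only. Outside it, Fos, given above, was called higher, as was Mylk, myosin light chain kinase, at 9.41 with 7.68 and 7.99. A second Mylk probe set lay 1.27 above the vector array but 0.81 above the untreated array. Tagln, an actin-binding protein of smooth muscle (11.16, with 6.47 in vector-only cells and 10.27 in untreated cells) and Ccn2 (13.10, with 10.54 and 12.78) set the vector array apart rather than the array labelled Mical2. The fibroblast and smooth muscle markers above were also low in vector-only cells, and their part in this difference was not tested. Tagln is itself among the smooth muscle markers, so those markers and this list share values. Of 52 genes of actin assembly at the floor (59 measured), Scin, a filament-severing protein of the gelsolin family, was called lower. It read 4.02, with 7.83 in vector-only cells, 6.11 in untreated cells and 3.57 on the Mical3-labelled array. Genes called outside this list included Fmn1, a formin (6.55, with 3.97 and 5.16), and Mtss1 (11.36, with 9.98 and 10.32) as higher. Arhgef26 (5.54, with 8.25 and 9.13) was called lower. Other Mtss1 probe sets varied, from differences of 1.93 and 1.11 to 0.33 and -0.23. The count of calls thus depends on how the list was drawn up. Of 26 integrin and adhesion genes at the floor (29 measured), Itgb8, a subunit of the integrin that releases active TGF-beta, was called lower at 4.53, with 6.25 and 7.03. Its level on the Mical3-labelled array was lower still, 3.15.

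**Figure D3:**
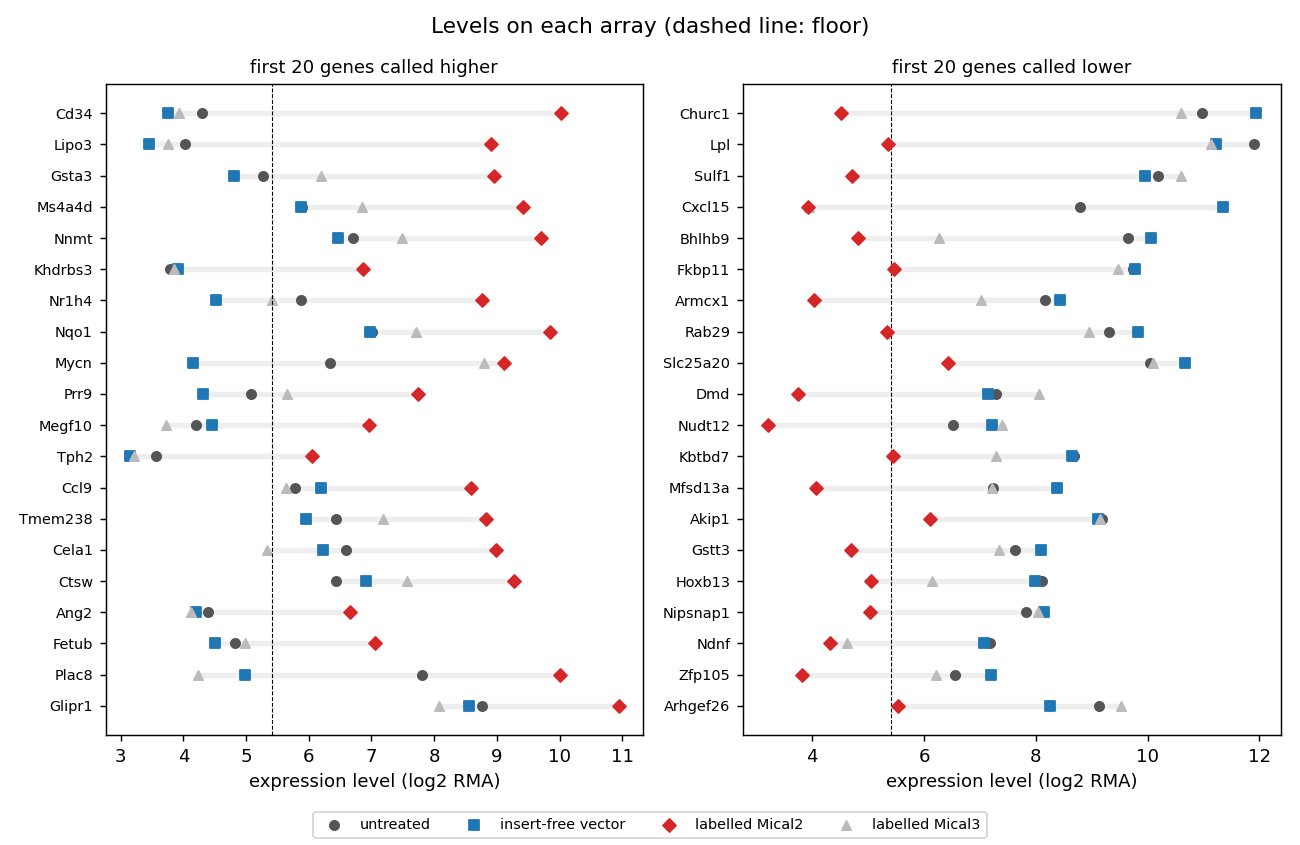
Levels (log2 RMA) of the first 20 genes called higher (left) and the first 20 called lower (right), ranked by the smaller of the 2 differences, with 1 symbol for each of the 4 arrays. The dashed line is the floor of 5.41. Cd34 stands at 10.02 on the array labelled Mical2 with the other 3 arrays below the floor, and Churc1 at 4.52 with the other 3 between 10.59 and 11.94.

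Redox and detoxification enzymes moved in both directions. Of 50 genes of the NRF2 and glutathione list at the floor (52 measured), 5 were called higher and 2 lower, and the list's medians were 0.09 from vector-only cells and 0.19 from untreated cells. Gsta3, a glutathione transferase, read 8.96 with 4.80 in vector-only cells, 5.27 in untreated cells and 6.20 on the Mical3-labelled array. Its dimmer second probe set read 5.02, with 3.68 and 3.53. Nqo1, which reduces quinones without releasing radicals, read 9.84, with 6.98 in vector-only cells, 7.01 in untreated cells and 7.71 on the Mical3-labelled array. Akr1c13, an aldo-keto reductase, read 6.39 with 4.38 and 4.18. Sod3, the extracellular superoxide dismutase, read 8.81 with 7.11 and 6.75, and 5.20 on the Mical3-labelled array. Mgst1, a membrane-bound transferase, read 12.14 with 10.85 and 10.20 and 7.84 on the Mical3-labelled array, while a second probe set of it lay below the floor. Other transferases were lower. Gstt3 read 4.69 with 8.09 in vector-only cells and 7.63 in untreated cells, and Gstm5 read 8.84 with 11.18 and 10.41. Nnmt, which methylates nicotinamide, was the 1 called of 16 genes of nicotinamide and folate metabolism, 9.51-fold over vector-only cells and 8.06-fold over untreated cells. Vnn1, a pantetheinase tied to the supply of cysteamine, was called higher at 12.52 with 9.89 and 10.53, and 7.03 on the Mical3-labelled array.

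Gsta3 and Cd34, among the first genes called higher, are shown with the sequence around their start sites. The antioxidant response element was searched as TGACNNNGC on both strands, from 250 bases before to 50 bases after each RefSeq start site (GRCm38.p6). Of the 118 genes called higher 89 had a promoter in the table, and 19 of these (21.3%) held a match. Among the 211 called lower it was 29 of 170 (17.1%), and among all genes measured at the floor 16.7% of 9759. The share over all 32851 promoters was 12.4%. The Gsta3 window, chr1:21240335-21240634 on the plus strand, holds a match that starts 121 bases before the start site. In the Cd34 window, chr1:194938571-194938870 on the plus strand, the match starts 91 bases before it. The Nqo1 window held no match to these letters. Capitals mark the match, which is a description and not a bound site.
Gsta3 promoter: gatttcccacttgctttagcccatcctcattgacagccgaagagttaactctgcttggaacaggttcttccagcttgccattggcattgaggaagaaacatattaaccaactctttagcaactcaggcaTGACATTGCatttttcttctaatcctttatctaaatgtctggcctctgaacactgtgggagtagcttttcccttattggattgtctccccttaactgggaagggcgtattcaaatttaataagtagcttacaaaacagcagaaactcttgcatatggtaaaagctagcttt
Cd34 promoter: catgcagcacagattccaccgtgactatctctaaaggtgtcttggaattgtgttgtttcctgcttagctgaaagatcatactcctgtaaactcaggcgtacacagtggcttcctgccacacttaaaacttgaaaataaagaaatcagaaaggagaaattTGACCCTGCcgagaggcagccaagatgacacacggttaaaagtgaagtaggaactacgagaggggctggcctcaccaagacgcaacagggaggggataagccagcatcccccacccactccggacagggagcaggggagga

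Lipid enzymes held some of the widest differences in both directions. Lpl, lipoprotein lipase, which frees fatty acids from circulating lipoproteins at the vessel wall, read 5.35 on the array labelled Mical2. It read 11.23 in vector-only cells, 11.91 in untreated cells and 11.13 on the Mical3-labelled array. A second Lpl probe set read 4.78, with 7.93, 8.76 and 8.30 in that order, so both readings put the array labelled Mical2 alone at the bottom. Lipo3, of an acid lipase family, was the reverse, at 8.90 with 3.46, 4.02 and 3.75. Mgll, monoacylglycerol lipase, was called higher at 8.62 with 5.31 and 7.11, and 2 more of its 4 probe sets passed 1 from both controls. Slc25a20, which carries acylcarnitines into mitochondria, was called lower at 6.43 with 10.67 and 10.05, and its second probe set read 4.89 with 8.71 and 8.20. These were the 4 called of 33 genes of lipid uptake, lipolysis and oxidation at the floor (38 measured), whose medians were -0.40 from vector-only cells and -0.07 from untreated cells. In lipid synthesis, 33 genes held Scd1, a desaturase, as higher (9.62, with 6.74 and 7.71) and Tm7sf2, a sterol reductase, as lower (5.30, with 7.72 and 7.93). Plpp3, a phosphatase that degrades lysophosphatidic acid, was called higher at 10.30 with 8.29 and 7.98, and 4.44 on the Mical3-labelled array. Its other probe set gave 9.27, with 7.20, 7.24 and 4.16. Nr1h4, the bile acid receptor, was the 1 called of 20 nuclear receptors and coactivators at the floor (26 measured). It read 8.77, with 5.87 in untreated cells, and vector-only cells, at 4.52, were below the floor. Ptgs2, the inducible cyclooxygenase, was called at 10.17 with 7.82 and 9.15, the 1 of 11 prostaglandin genes at the floor (16 measured), and stood at 5.72 on the Mical3-labelled array. Ptger4, a receptor of prostaglandin E, read 8.94 with 7.25 and 8.18.

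Matrix sugars and the enzymes that edit them came out on both sides. Of 30 proteoglycan, hyaluronan and heparan sulfate genes at the floor (37 measured), 4 were called higher and 1 lower. Sulf1, which removes sulfates from heparan chains outside the cell, read 4.71 on the array labelled Mical2, 9.95 in vector-only cells, 10.19 in untreated cells and 10.60 on the Mical3-labelled array. Its second probe set read 4.36, with 8.68, 8.92 and 9.47. Hs3st1, which adds a sulfate to heparan chains, was higher at 8.77 with 6.06 and 7.27, and 8.74 on the Mical3-labelled array. Vcan, versican, a large proteoglycan that binds hyaluronan, read 10.23 with 7.71 and 8.86. Its 2 other probe sets above the floor were above both controls by more than 1, and Has2, a hyaluronan synthase, read 9.02 with 6.57 and 7.91. On the Mical3-labelled array, Vcan was at 6.79 and Has2 at 5.81. A second Has2 probe set lay 2.61 above the vector but only 0.57 above the untreated array. Omd, osteomodulin, read 7.24 with 5.49 and 6.04.

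Fibrous matrix genes differed mainly from vector-only cells. Of 20 collagen chains at the floor (24 measured), Col6a3 was called higher (7.32, with 4.85 in vector-only cells and 5.29 in untreated cells). Col8a2 (4.60, with 6.79 and 9.73) and Col5a3 (5.25, with 6.32 and 6.58) were called lower. The list's median was 1.09 from vector-only cells and -0.17 from untreated cells. Fibroblast markers, collagens among them, moved the same way, and their part was not tested. Pcolce2, an enhancer of procollagen processing, was called higher at 11.86 with 9.47 and 10.15. Agrn, agrin, which is a heparan sulfate proteoglycan of basement membranes, was called lower at 9.27 with 10.48 and 10.32, while its second probe set was below the floor. Among 30 proteases and inhibitors at the floor (38 measured) 3 were called, all higher. Serpinf1, pigment epithelium-derived factor, an inhibitor of angiogenesis, read 12.19 with 7.73 in vector-only cells, 10.87 in untreated cells and 8.28 on the Mical3-labelled array. Its second probe set read 11.69, with 7.05, 10.17 and 8.0. Serpinb9b read 9.91 with 8.03 and 8.25, and 10.56 on the Mical3-labelled array. Mmp2, a gelatinase, read 8.09 with 6.64 and 7.06. Among 14 genes of mesenchymal transition at the floor (17 measured) Prrx2, a homeobox factor, was called higher, at 10.31 with 8.41 and 9.22, and 4.76 on the Mical3-labelled array.

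Interferon signalling was the list with the most calls. Interferons are secreted on sensing of viral nucleic acid, and their receptors switch on antiviral genes through STAT and IRF factors. Of 62 measured genes, all at the floor, 16 were called lower and 1 higher. The median difference was -1.51 from vector-only cells and -0.52 from untreated cells, and 50 of the 62 lay below both controls. The vector array was the highest of the 3 for each of the 16 genes, so the difference from untreated cells, from -1.79 to -1.02, is the smaller one in every case. Roles differed in their counts. None of 5 ligand and receptor genes and none of 9 transcription factors and their inhibitors was called. Of 9 sensors, Dhx58 was lower (6.05, with 9.88 and 7.70), as was Tlr3, which senses double-stranded RNA (6.39, with 8.65 and 7.5). The other probe sets of both genes differed less. For Dhx58, 1 of them lay 0.20 above untreated cells (-0.99 from vector-only cells), and another differed by -1.01 and -0.33. That of Tlr3 differed by -0.91 and -0.21. Tlr2, a sensor of bacterial lipopeptides, was the 1 called higher, at 7.0 with 5.26 and 5.92. Of 31 genes listed as effectors 12 were called lower, and of 8 listed as GTPases Igtp and Gbp7 were. The roles are those of the list, and a gene such as Ifi47 could be placed under either.

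Among the effectors, Herc6, a ubiquitin ligase of the response, read 7.08 on the array labelled Mical2, 9.49 in vector-only cells, 8.83 in untreated cells and 8.91 on the Mical3-labelled array. Rnf213, a large ubiquitin ligase also known for a role in vessels, read 9.77, with 12.15, 11.56 and 11.39. Cmpk2, a mitochondrial kinase of nucleotides that neighbours Rsad2 in the gene order, read 6.74, with 9.0, 7.94 and 8.78. Gbp7, a guanylate-binding protein, read 7.73, with 10.08, 8.80 and 8.58. On the probe set that represents each of these 4 genes, the array labelled Mical2 was the lowest of the 4 arrays and the vector array the highest. A second Cmpk2 probe set read 5.90, with 6.06 and 5.56, between both controls. Among the factors that carry the signal and were not called, Stat2 read 6.44, with 8.06 in vector-only cells and 7.06 in untreated cells, and Irf9 read 8.44, with 9.67 and 9.22. None of 16 class I antigen presentation genes with a probe set of their own was called. Their medians were -0.88 and -0.44, and H2-K1, a class I heavy chain, read 8.88 with 10.28 and 9.67. Probe sets shared by several class I genes did pass the rule. The probe set of H2-Q6 and H2-Q8 read 5.27, with 8.38 and 6.90, and that of H2-Q4, H2-Q6 and H2-Q8 read 6.95, with 9.24 and 7.96.

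**Figure D4:**
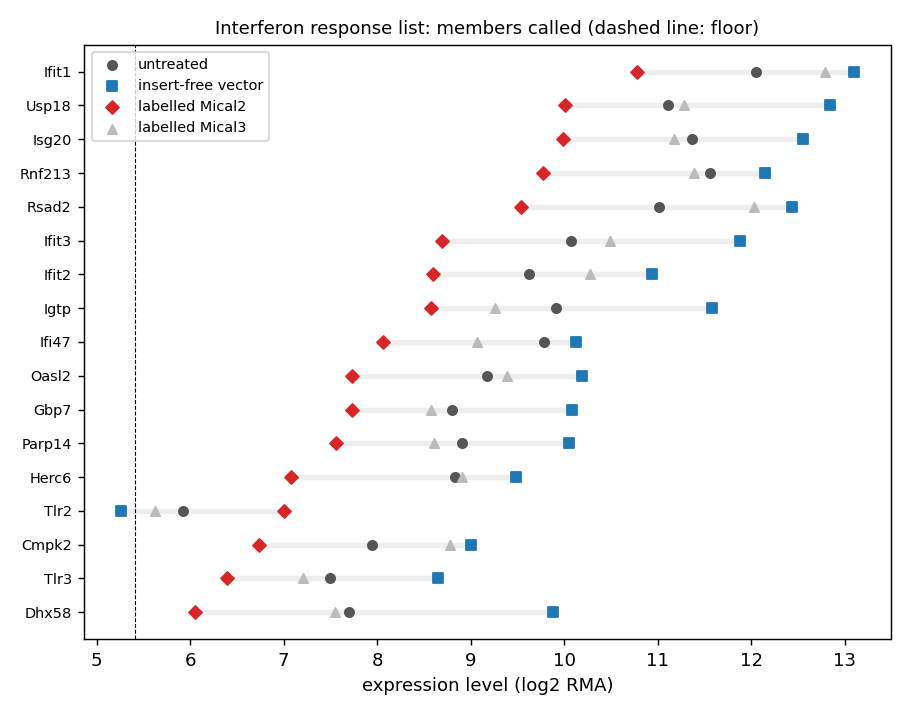
Levels (log2 RMA) on the 4 arrays of the 17 members of the interferon response list that passed the size rule. The dashed line is the floor of 5.41. For the 16 genes called lower the array labelled Mical2 lies below both controls, and Tlr2 is the 1 gene where it lies above both.

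The promoters of these genes were searched for the interferon-stimulated response element as GAAA, any 2 bases and GAAA again, on both strands. Of the 16 genes called lower 13 had a promoter in the table, and 5 held a match (38.5%). Of 36 list members at the floor that were not called and had a promoter, 15 did (41.7%), beside 3.49% of all 9759 genes at the floor with one. Outside the list, 9 of 157 genes called lower held a match (5.73%), and 3 of 89 called higher (3.37%). The share among called members was thus not above that among list members that were not called. The share over all 32851 promoters was 3.44%. The windows of Ifit1, Ifit3 and Rsad2 are printed, with the matches in capitals, to show paired matches and a single one in genes called lower. Ifit1, an RNA-binding effector, has its matches starting 104 and 85 bases before the start site (chr19:34640639-34640938, plus strand). In Ifit3, its partner in the same cluster, they start 156 and 122 bases before it (chr19:34583279-34583578, plus strand). Rsad2, viperin, has 1 match, starting 120 bases before it (chr12:26456403-26456702, minus strand).
Ifit1 promoter: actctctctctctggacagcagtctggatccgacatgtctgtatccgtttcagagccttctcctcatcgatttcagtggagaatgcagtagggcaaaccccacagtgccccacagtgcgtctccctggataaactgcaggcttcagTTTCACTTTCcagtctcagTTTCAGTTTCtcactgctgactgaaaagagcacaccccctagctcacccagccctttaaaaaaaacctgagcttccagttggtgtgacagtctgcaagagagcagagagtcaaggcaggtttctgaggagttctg
Ifit3 promoter: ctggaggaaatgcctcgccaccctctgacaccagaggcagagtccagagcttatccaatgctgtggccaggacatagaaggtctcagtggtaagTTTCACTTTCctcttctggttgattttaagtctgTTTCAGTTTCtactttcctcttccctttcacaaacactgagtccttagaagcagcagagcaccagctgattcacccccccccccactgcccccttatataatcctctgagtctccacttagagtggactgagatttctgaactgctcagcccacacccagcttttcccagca
Rsad2 promoter: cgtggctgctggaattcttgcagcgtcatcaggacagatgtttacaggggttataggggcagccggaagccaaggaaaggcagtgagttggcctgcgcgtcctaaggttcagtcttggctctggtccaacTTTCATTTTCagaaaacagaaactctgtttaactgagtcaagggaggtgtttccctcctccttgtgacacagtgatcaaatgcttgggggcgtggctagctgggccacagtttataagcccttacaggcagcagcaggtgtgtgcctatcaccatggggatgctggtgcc

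Chemokines were called in both directions, 1 higher and 3 lower of 22 at the floor (31 measured). Ccl9, a ligand that draws myeloid cells, read 8.59 with 6.19 in vector-only cells, 5.78 in untreated cells and 5.64 on the Mical3-labelled array. Cxcl15 read 3.92 with 11.34 and 8.79, and 3.94 on the Mical3-labelled array. Its second probe set gave 4.67, 9.20, 6.67 and 4.67 for the same arrays. Cxcl5, which draws neutrophils, read 4.85 with 6.28 in vector-only cells and 10.95 in untreated cells, so the controls themselves were further apart than the array labelled Mical2 was from vector-only cells. Cxcl10, an interferon-induced ligand, read 11.29, with 12.51 and 12.38. Of 24 NF-kB and inflammatory genes at the floor (28 measured), Nfkbie, an inhibitor of the factor, was called lower at 7.89 with 9.47 on both controls, and Selp, described above, higher. Cd14, a macrophage marker and co-receptor for bacterial lipopolysaccharide, was called higher at 8.26 with 5.75 and 7.04.

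Among genes without a list in common, the widest difference was that of Churc1, a zinc finger protein, at 4.52 with 11.94 in vector-only cells, 10.97 in untreated cells and 10.59 on the Mical3-labelled array. The reading is from a single probe set, since the other was near 3.3 on all 4 arrays. Of 8 genes of the Armcx and Gprasp family at the floor (10 measured), Bhlhb9 (4.81, with 10.06 and 9.65) and Armcx1 (4.04, with 8.43 and 8.17) were called lower. On the Mical3-labelled array these read 6.26 and 7.02. Rab29, a GTPase of vesicle traffic, read 5.34 with 9.82 and 9.31. Rab3b (7.07, with 8.61 and 8.32) and Rab38 (6.82, with 8.32 and 8.95) were the other 2 called of 21 Rab genes at the floor (25 measured). Dmd, dystrophin, read 3.74 with 7.14, 7.28 and 8.06 on the Mical3-labelled array, and its second probe set above the floor 5.13 with 6.23, 6.57 and 7.54. Sgce, a sarcoglycan of the same complex, read 6.46 with 7.66 and 8.09. Of 19 Hox genes at the floor (25 measured), which mark position along the body axis, Hoxa9 (5.59, with 8.03 and 8.02) and Hoxc10 (5.20, with 7.36 and 6.37) were called lower. A second Hoxa9 probe set was close to both controls, at 6.25 with 6.37 and 6.52. Hoxb13, outside the list, read 5.06 with 7.99 and 8.11. Ago1, an Argonaute protein that binds small RNAs, was called lower at 7.37 with 9.38 and 9.43, the 1 of 12 genes of hairpin processing at the floor (13 measured). Ago2, the member that slices its target, read 9.47 with 10.12 and 9.92. Insr, the insulin receptor, read 6.46 with 9.04 and 7.69.

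Other genes among the first 30 in each direction were of varied kinds. Plac8, a small cysteine-rich protein, read 10.0 with 4.99 in vector-only cells, 7.81 in untreated cells and 4.23 on the Mical3-labelled array. The vector array and the Mical3-labelled array were below the floor for it. Ang2, a ribonuclease of the angiogenin family and not an angiopoietin, read 6.66 with 4.20 and 4.39. The proteases Cela1, an elastase (8.98, with 6.23 and 6.59), and Ctsw, a cathepsin (9.27, with 6.92 and 6.44), were higher, as was Fetub, a protease inhibitor (7.05, with 4.51 and 4.83). Glipr1 read 10.94 with 8.56 and 8.77, and 8.08 on the Mical3-labelled array. A second Glipr1 probe set was higher by less than 2-fold, at 6.83 with 6.36 and 6.24. Lower were Ndnf, a secreted neurotrophic factor, at 4.31 with 7.07 and 7.18, and Abi3bp, a matrix protein, at 4.04 with 6.53 and 7.16. On the Mical3-labelled array these 2 read 4.62 and 4.65. Adgrg6, an adhesion receptor, read 6.51 with 9.32 and 9.03, and 8.51 on the Mical3-labelled array. Map2, a microtubule-binding protein, read 3.52 with 6.63 and 5.93.

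Further genes of high rank were read on both sides. Ms4a4d, a membrane protein of a family that includes immune cell receptors, read 9.41 with 5.88 in vector-only cells, 5.90 in untreated cells and 6.85 on the Mical3-labelled array. It was the 1 called of 3 MS4A genes at the floor (12 measured). Khdrbs3, an RNA-binding splicing regulator, read 6.87 with 3.91 and 3.78, both below the floor, as were both controls for Megf10, an engulfment receptor (6.96, with 4.46 and 4.21), and Tph2, a serotonin-synthesising hydroxylase (6.05, with 3.15 and 3.56). Prr9 read 7.74 with 4.32 and 5.08, and Tmem238 read 8.83 with 5.95 and 6.43. Tmem45a (10.49, with 8.32 and 8.42), Nsg1 (11.32, with 9.42 and 8.99) and Sprr1a (8.31, with 5.47 and 6.43) were 2-fold or more above both controls that were themselves above the floor. Of 12 keratin and intermediate filament genes at the floor (17 measured), Krt14, a basal epithelial keratin, read 7.28 with 5.11 and 6.07, and Synm, synemin, read 7.67 with 6.52 and 6.65. On the Mical3-labelled array Krt14 was at 7.0 and Synm at 5.05. The epithelial markers given above were also higher than in vector-only cells, and their part was not tested. Gjb5, a connexin, was the 1 called of 13 cadherin and junction genes at the floor (25 measured), at 8.63 with 5.35 and 7.31.

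On the lower side, Nudt12, a hydrolase of nicotinamide dinucleotides, read 3.20 with 7.22 in vector-only cells, 6.51 in untreated cells and 7.39 on the Mical3-labelled array. Nipsnap1, a mitochondrial protein, read 5.03 with 8.15, 7.83 and 8.03, and Akip1, which binds protein kinase A, read 6.11 with 9.11, 9.19 and 9.15. For these 3 genes the array labelled Mical2 stood alone below the other arrays. Kbtbd7, a ubiquitin ligase adaptor, read 5.45 with 8.65 and 8.69, and its second probe set 3.54 with 6.09 and 5.97. Mfsd13a read 4.07 with 8.38 and 7.24, but its other probe sets were close to both controls. The zinc finger genes Zfp105 (3.82, with 7.20 and 6.56) and Zfp229 (3.66, with 6.88 and 6.23) and the membrane protein genes Tmc4 (5.93, with 9.12 and 8.57) and Tmem223 (7.08, with 10.17 and 9.61) were called as well. Plagl1, an imprinted zinc finger factor, read 4.29 with 7.21 and 6.70 and 3.94 on the Mical3-labelled array, while its other probe sets were below the floor. Of the genes listed as interferon effectors and not yet given, Parp14, an ADP-ribosyltransferase, read 7.56 with 10.05 and 8.91. Usp18, a protease that dampens the response, read 10.01 with 12.84 and 11.11. Ifi47 (8.06, with 10.13 and 9.78) and Oasl2 (7.73, with 10.19 and 9.18) were also lower, as was the exonuclease gene Isg20 (9.99, with 12.56 and 11.37).

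The array labelled Mical3 entered the rule only through the choice of probe set, and gives a further side-by-side level. Of the 118 genes called higher, 86 (72.9%) also stood at least 1 above it, 30 lay within 1, and 2 were at least 1 below it. Of the 211 called lower, 115 (54.5%) stood at least 1 below it, 92 lay within 1, and 4 stood at least 1 above it. Over all genes at the floor, the array labelled Mical2 was at least 1 above that array for 3.79% and at least 1 below for 3.55%. These comparisons share the array labelled Mical2. In the order of the 18145 measured genes with a position, of which 329 were called, 17 neighbouring pairs were called in 1 direction, 12 of them lower. Some pairs share a gene, such as those of Zfp760. The number of pairs that the shares called would give was not computed, so the count is no sign of clustering. They include the related pairs Akr1c13 with Akr1c18 and Serpinb9b with Serpinb1b among the higher genes, and Ifit2 with Ifit3 and Rsad2 with Cmpk2 among the lower. Near-identical paralogs can share probes, so the first 2 pairs are uncertain as separate readings. Serpinb9b and Serpinb1b did differ on the Mical3-labelled array, at 10.56 and 4.71.

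Some large lists were without a call. They were DNA replication and mitosis (47 genes at the floor, medians of 0.02 from vector-only cells and -0.06 from untreated cells), p53 targets and apoptosis (26 genes, 0.04 and 0.15) and glycolysis and hypoxia (24 genes, 0.13 and 0.09). Stress lists had 1 call each. Hspb1, a small heat shock protein, read 11.67 with 13.16 and 12.85, while Fkbp11, of the secretory pathway, read 5.47 with 9.77 and 9.74, though its probe set may cross-hybridise. Another Fkbp11 probe set was not lower than both controls. Among stress genes that were not called, Ddit3 (11.31, with 13.08 and 11.06) and Trib3 (9.88, with 12.12 and 10.06) stood apart in vector-only cells.

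**Figure D5:**
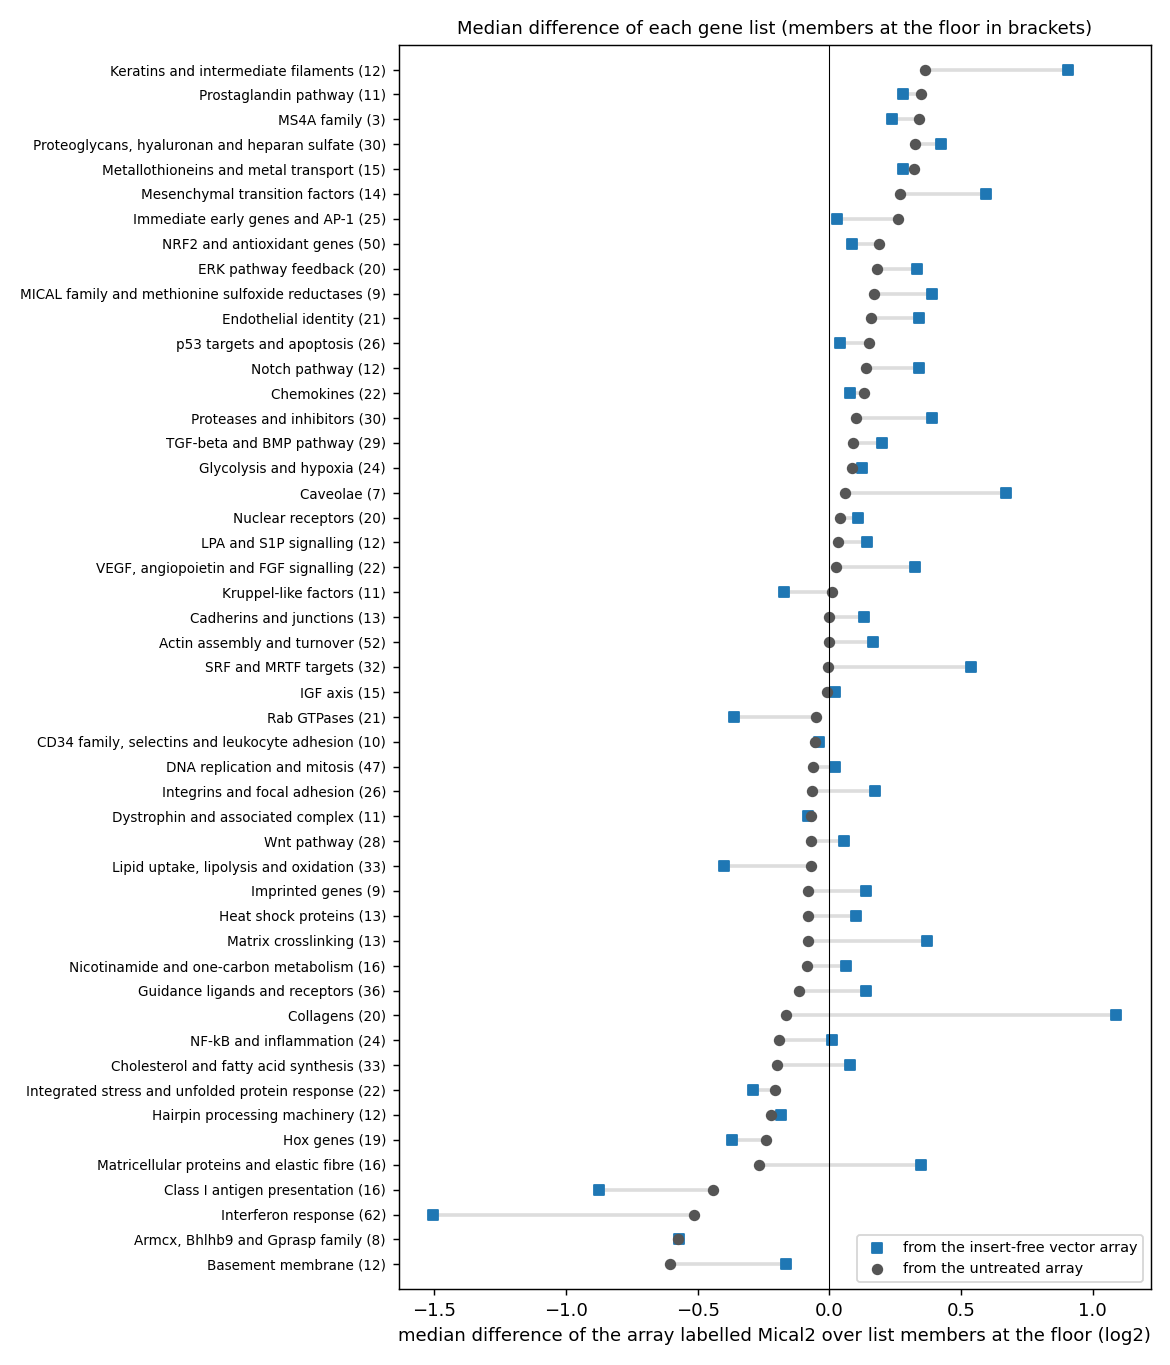
Median difference of the array labelled Mical2 over the members of each of 49 gene lists at the floor (number in brackets), from vector-only cells (squares) and from untreated cells (circles), in log2. Interferon response lies lowest from vector-only cells, at -1.51, and at -0.52 from untreated cells, while collagens lie at 1.09 and -0.17.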

How the data were processed

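The 4 samples were hybridised to 1-colour Affymetrix arrays with 45101 probe sets, 1 array per group, each from RNA pooled from 3 biological replicates. The authors deposited log2 values made with RMA, per the submitters' processing notes, which corrects background, normalizes quantiles and sums probes, and which compresses differences near background. Its version is not given in the sources used here. Precision is limited by having 1 array per group, which allows no test.

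Probe sets were named from the platform annotation, with symbols updated through RefSeq: 34945 had a single symbol, 932 several and 9160 none, and 64 controls were left out. Each of 18193 genes was represented by its probe set of highest mean. A gene was called when it differed by at least 1 log2 unit in the same direction from both controls, and the higher level reached 5.41. Genes were named from the first 30 in each direction, ranked by the smaller difference, called members of 58 lists, up to 4 further members per list with the largest difference from the vector array, and the MICAL family. Not every such gene is printed. Mylk, Fmn1 and Mtss1 were named because they were called outside the lists used for the actin comparison. The genes, rule and lists were chosen with earlier results of these data known. Alternatives changed the control, the size, the floor, the probe set per gene and the normalization. Python 3.11.15, numpy 2.4.6 and pandas 2.3.3 were used.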

Additional observations from a re-analysis of the deposited data

Results flagged for a closer look

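The comparisons above use probe sets with a single gene symbol. Among the 10092 others, of which 2790 reached the floor, 44 passed the same size rule, 19 higher and 25 lower on the array labelled Mical2. A probe set shared by Prl2c2, Prl2c3, Prl2c4 and Gm7040, of the prolactin family, read 12.29, with 5.66 on the vector, 8.72 on the untreated and 7.15 on the array labelled Mical3. A probe set shared by Akr1c12 and Akr1c13 read 7.23, with 4.66, 4.64 and 5.27. On the lower side, a probe set shared by Xlr and 3830403N18Rik read 4.94, with 9.63, 9.49 and 8.24, and one shared by Arxes1 and Arxes2 read 3.34, with 6.61, 7.14 and 3.38. Probe sets shared by class I genes (H2-Q4, H2-Q6 and H2-Q8) were among those lower, as were both probe sets shared by the class II chaperone genes H2-DMb1 and H2-DMb2, which read 5.51, with 6.82 and 6.73, and 4.66, with 6.13 and 5.86. Which of the genes gave the signal was not tested.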

How the results depend on the processing

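No paired analysis was possible because each group has 1 array. The counts of 118 genes higher and 211 lower became 458 and 828 against vector-only cells alone, and 236 and 396 against the mean of both controls. A 1.5-fold rule gave 307 and 672, a 3-fold rule 47 and 65, and a floor at the 75th percentile 68 and 138. Averaging probe sets gave 132 lower. The other settings kept both counts within 1.5 times. Without probe sets with suffixes that mark possible cross-hybridisation, 95 of the higher and 167 of the lower calls were kept. The smaller difference then changed sign for Mgll (-0.08) and Mgst1 (-0.40). The differences opposed each other for Fkbp11 (0.15 against the call, from untreated cells) and Plagl1 (0.47 against the call, from vector-only cells). Among others, Churc1 (-0.03), Mfsd13a (-0.11), Tlr3 (-0.21), Id2 (0.23), Klf6 (0.95), Krt14 (0.70), Mmp2 (0.74) and Ece1 (-0.84) were no longer called. Those readings come from other, mostly dimmer probe sets. Genes with only suffixed probe sets, such as Nnmt, Armcx1 and Cmpk2, could not be read under this setting. Of 122 named genes, 66 kept their call under every setting that could be run for them, other than the 3-fold rule. Single arrays of pooled RNA set the limit throughout.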

Other observations

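The 6 genes here lie outside the naming rule and were chosen after their values were seen, so they stand for no group. Ivd, isovaleryl-CoA dehydrogenase, read 6.66 on the array labelled Mical2, 8.80 on the vector, 8.73 on the untreated and 8.81 on the array labelled Mical3. Dbt, a subunit of the branched-chain ketoacid dehydrogenase, read 7.34, with 8.53, 8.79 and 9.10. Ppm1k, a phosphatase of this complex, read 6.46, with 7.69, 7.61 and 7.62. For each of these 3 genes the array labelled Mical2 was alone at the bottom. The histone methyltransferase genes Kmt2d (8.44, with 9.70 and 9.46) and Nsd1 (7.12, with 8.30 on both controls) were each little more than 2-fold lower than the nearer control. Their other probe sets at the floor did not repeat this. That of Kmt2d was above both controls, by 0.34 from vector-only cells and 0.22 from untreated cells. That of Nsd1 differed by -1.55 from vector-only cells but by only -0.02 from untreated cells. Trrap, a scaffold of acetyltransferase complexes, read 9.19, with 10.32 and 10.41, and 9.24 on the array labelled Mical3.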
